A study of Bos taurus with 2 samples.

Results

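The genes described here move ions, water and bicarbonate across the cells of exocrine glands, and they were followed in muzzle RNA from 1 light-muzzle and 1 dark-muzzle HanWoo cow. The set is a list of 50 genes chosen by gene name, with no measured value in the rule but with earlier results of these data known. It holds cotransporters, exchangers, channels, sodium pump subunits, aquaporins, carbonic anhydrases, receptors that start secretion and transcription factors of secretory epithelium. Probes were assigned to these genes through the accession that the array gives each probe, looked up in the RefSeq bovine gene table. Of the 50 genes, 30 had at least 1 probe, and these 30 stand among 9647 genes named in the same way. They were read by 76 of the 43639 probes. The remaining 20 genes (SLC12A7, SLC4A2, SLC26A4, SLC9A2, ANO1, BEST2, CLIC6, KCNN4, KCNQ1, KCNE3, SCNN1G, AQP5, AQP9, CA12, CA13, CA14, CHRM1, FOXI1, FOXA1 and BHLHA15) matched no probe by accession and were not analysed here.

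In the fluid-making cells of a gland, a sodium gradient kept up by the sodium pump drives chloride into the cell through the cotransporter NKCC1. Chloride and bicarbonate then leave through channels and exchangers on the side that faces the duct, sodium follows, and water moves through aquaporins. Carbonic anhydrases supply the bicarbonate by joining carbon dioxide and water, and acetylcholine and noradrenaline start the process through receptors that raise calcium in the cell. The bovine muzzle holds nasolabial glands beneath its keratinised skin, which keep its surface wet.

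The cow called light muzzle here is labelled by a yellow nose, and the one called dark muzzle by a black nose. Both were female HanWoo cattle, 30 months old, raised under the same conditions, and the study compared muzzle colours. The piece taken was the front of the muzzle as a whole, so skin, glands and what lies under them entered 1 RNA sample, and the dark-muzzle animals of the study were of its medium class. With 1 cow and 1 array per colour, no difference between cows could be tested, no SD between cows exists, and colour cannot be told apart from any other difference between these 2 animals.

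Both RNAs were hybridised to 1-colour Agilent bovine arrays, on the same slide as far as the sources tell. Levels are log2 processed signals relative to the 75th percentile of the array, an intensity of 1144 on the light-muzzle and 1137 on the dark-muzzle array. Spots well above background made up 78.8% and 81.9% of the noncontrol spots, and 0 were saturated. A log2 ratio is dark muzzle minus light muzzle, and a gene's value is the mean ratio over its probes measured in both cows. A probe well above background in 1 cow only has a bound, set by the detection limit of the other array (log2 level -5.78 in the light and -5.81 in the dark muzzle). Different probes of a transcript differed by a median SD of 0.18 in log2 ratio over 7661 transcripts, and repeated spots of 36 probes by 0.05. The error beside a ratio is the software's estimate for the spots and leaves out differences between animals. Keratinocyte markers were measured in both cows (KRT5 6.32 and 5.80, KRT14 7.52 and 7.12 in the light and dark muzzle). All 12 measured skeletal muscle markers were higher by 2-fold or more in the dark muzzle, beside 9.86% of all genes with a value. Their median log2 ratio was 3.17.

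Much of the measured set was lower in the dark muzzle. Of the 76 probes, 65 were measured in both cows, 3 had a bound because only the dark muzzle was well above background, 3 because only the light muzzle was, and 5 were dim in both. Among the 71 probes with a ratio or bound, 38 (53.5%) were lower by 2-fold or more in the dark muzzle, where 7.17% of all 36630 probes were. At least 2-fold higher were 6 (8.45%), where 9.76% of all probes were. Counted by gene, 14 of 29 (48.3%) were at least 2-fold lower, beside 6.47% of all 8914 genes with a value, and 3 (10.3%) were at least 2-fold higher, beside 9.86%. The members were chosen with earlier results of these data known, so these shares describe the set and are not an independent test. The median value of the 29 genes was -0.99, and that of all 8914 genes 0.07. Values ran from -5.20 for SLC4A10 to 3.25 for AQP7. In bulk tissue, fewer cells of a type and less RNA per cell cannot be told apart, and this holds for every ratio given here.

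**Figure D1:**
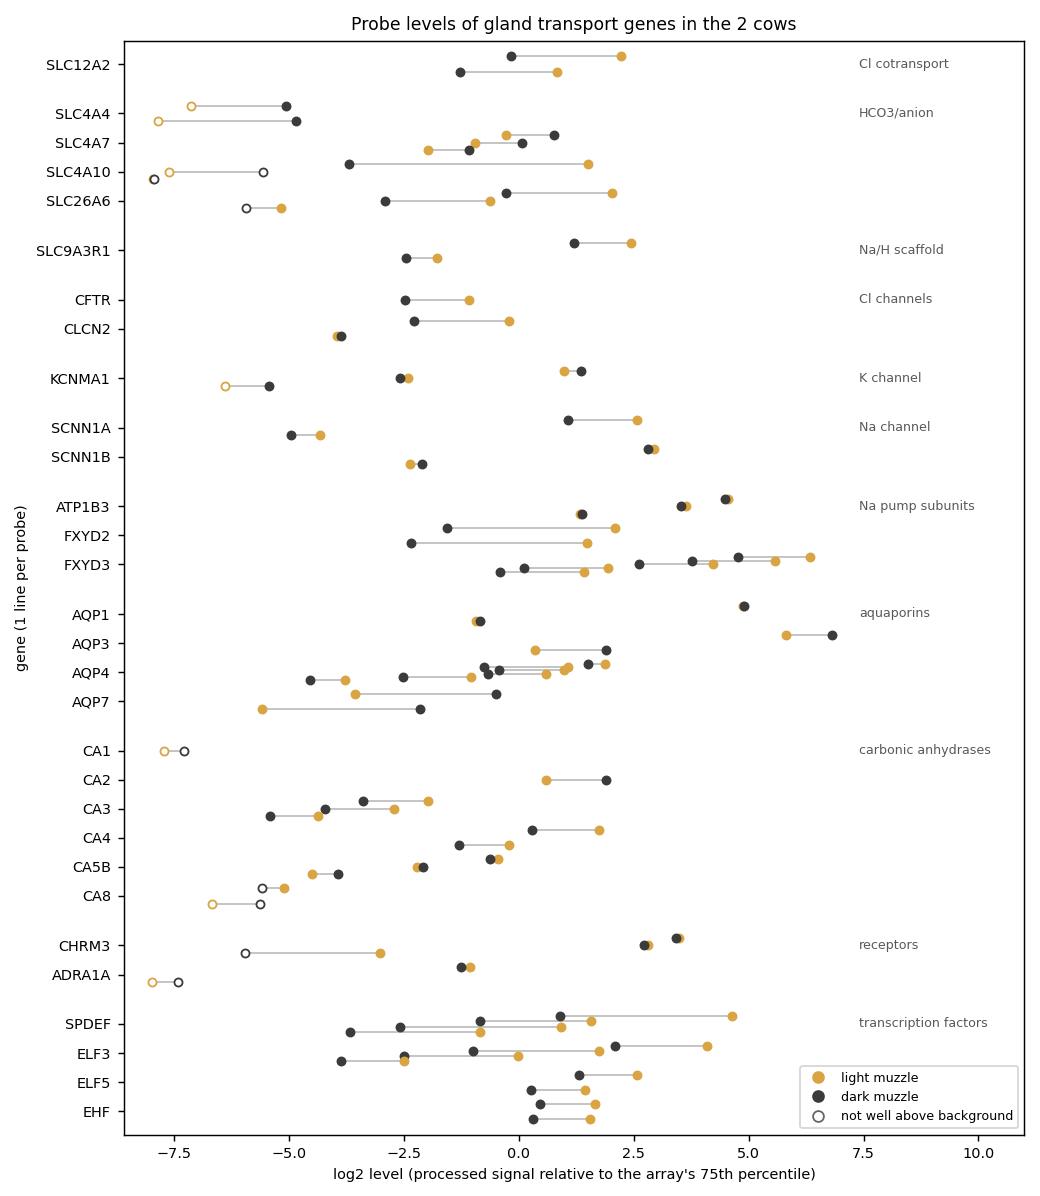
Log2 level of each probe of the 30 genes in the light muzzle (yellow) and the dark muzzle (black), relative to the 75th percentile of each array, with 1 line per probe and open circles for probes not well above background. The dark-muzzle point lies to the left of the light-muzzle point in 49 of the 65 probes measured in both cows.

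Where a gene had several probes, they mostly moved together. Of 23 genes with at least 2 measured probes, 18 had all of them on the same side of 0, and in 10 every measured probe was at least 2-fold lower. AQP7 was the 1 gene in which every measured probe was at least 2-fold higher. The SD between the probes of a gene ran from 0.02 to 1.53, with a median of 0.26.

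SLC12A2 (NM_174782) encodes NKCC1, the cotransporter that loads gland cells with chloride. Its first probe had a level of 2.21 in the light and -0.17 in the dark muzzle, and its second 0.83 and -1.29. The log2 ratios were -2.39 ± 0.20 and -2.12 ± 0.20 (software error), and the gene was 4.77-fold lower in the dark muzzle.

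The bicarbonate carriers did not move as a group. SLC26A6 (NM_001076852), which exchanges chloride for bicarbonate at the duct-facing membrane, was 4.95-fold lower in the dark muzzle. Its probes went from 2.03 to -0.29 and from -0.62 to -2.92 between the light and the dark muzzle, and the last one, near the detection limit in the light muzzle at -5.17, was not well above background in the other. That probe gave a bound of at least 1.56-fold lower. SLC4A10 (NM_001038128), a sodium-driven bicarbonate transporter known mainly from brain, had the lowest ratio of the set. It rests on 1 of its 3 probes, at 1.51 in the light and -3.69 in the dark muzzle, which is 36.7-fold lower (log2 ratio -5.20 ± 0.22) and the 8th lowest ratio among 33451 probes measured in both cows. Its other probes were not well above background on any array and gave no ratio, so the value has no second probe behind it, and with these dim signals averaged in it was -1.05.

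SLC4A7 (NM_001098926), a sodium-bicarbonate cotransporter of many tissues, was higher in the dark muzzle by a little under 2-fold (value 0.99). Its 3 probes stood at -0.29, -0.94 and -1.98 in the light muzzle and at 0.77, 0.08 and -1.09 in the dark muzzle. Both probes of SLC4A4 (NM_174605), the sodium-bicarbonate cotransporter of the blood-facing membrane in pancreas and kidney, were well above background only on the dark-muzzle array. They reached -5.07 and -4.84 there, close to the detection limit, and their bounds were at least 1.63-fold and 1.92-fold higher. The median of the 4 bicarbonate genes was -0.68, and it was -2.31 over probes measured in both cows alone and -0.03 without the filter on dim probes. SLC9A3R1 (NM_001077852, named NHERF1 in RefSeq), a scaffold that holds CFTR and proton exchangers at the membrane, had levels of 2.43 and 1.20 by its first probe and -1.78 and -2.46 by its second, with a value of -0.96.

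CFTR (NM_174018), the chloride and bicarbonate channel of duct and gland epithelium, was 2.61-fold lower in the dark muzzle by its 1 probe (-1.09 and -2.48 in the light and dark muzzle, log2 ratio -1.39 ± 0.21). CLCN2 (NM_001102487), a chloride channel opened by hyperpolarisation, gave no single answer. Its first probe went from -0.22 to -2.28, a log2 ratio of -2.07, and its second from -3.96 to -3.86, a log2 ratio of 0.09. These probes had the largest SD within a gene of the set, 1.53, and their mean of -0.99 describes neither.

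KCNMA1 (NM_174680), the large calcium-activated potassium channel that keeps secreting cells polarised, differed little. Its measured probes had ratios of 0.38 and -0.17, from light-muzzle levels of 0.98 and -2.41, and the dark-muzzle bound of the other was at least 1.26-fold higher.

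The subunits of the epithelial sodium channel, which takes sodium back from the duct fluid, differed in their values. SCNN1A (NM_174598) was 2.08-fold lower in the dark muzzle. Its first probe went from 2.58 to 1.08 (-1.50 ± 0.20), while its second, at -4.34 and -4.95, had a ratio of -0.61 ± 0.30. Under normexp background correction, another way to remove the background, the value was -0.78, under 2-fold. SCNN1B (NM_001098075) had levels of 2.93 and 2.80 by its first probe and -2.36 and -2.10 by its second. Their ratios of -0.13 and 0.27 differ in sign, and the value was 0.07.

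FXYD proteins are small membrane proteins that tune the sodium pump. FXYD2 (NM_174320), the gamma subunit best known from kidney tubules, was 13.4-fold lower in the dark muzzle. Its probes went from 2.08 to -1.57 and from 1.49 to -2.36, and their log2 ratios of -3.65 ± 0.20 and -3.84 ± 0.21 ranked 92nd and 76th lowest among the probes measured in both cows. FXYD3 (NM_001079646), found in many epithelia, was 3.31-fold lower. All 5 of its probes had ratios between -1.84 and -1.56, from light-muzzle levels of 6.33, 5.57, 4.22, 1.95 and 1.42 to dark-muzzle levels of 4.77, 3.77, 2.62, 0.11 and -0.40. ATP1B3 (NM_001035393), a beta subunit of the pump that is widely expressed, did not share this difference: its 3 probes had ratios between -0.10 and 0.04 at light-muzzle levels of 4.55, 3.63 and 1.33. A further ATP1B3 probe carried an outlier mark on the dark-muzzle array and was left out, and it would have given 0.21.

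The water channels were split. AQP7 (NM_001076378), which passes water and glycerol and is best known from fat, was 9.52-fold higher in the dark muzzle. Its probes went from -3.57 to -0.50 and from -5.58 to -2.15, with ratios of 3.07 ± 0.22 and 3.43 ± 0.35, so the light-muzzle level of the second lay just above the detection limit, and under normexp the value was 2.17. AQP3 (NM_001079794), the water and glycerol channel of epidermal keratinocytes, was 2.42-fold higher, from 5.81 to 6.80 by its first probe and from 0.35 to 1.90 by its second. The first probe alone gave a log2 ratio of 0.998, just short of 2-fold. Of 6 keratinocyte markers, 2 (KRT10 at 1.57 and IVL at 1.26) were higher by 2-fold or more, beside 9.86% of all genes with a value, and 0 lower. KRT5 (-0.52), KRT14 (-0.41) and DSC3 (-0.18) lay below 0, and DSG1 stood at 0.25. The list had a median of 0.04 (summed level 938 in the light and 1169 in the dark muzzle). The part of keratinocytes in the AQP3 ratio was not tested. AQP4 (NM_181003), a water channel of the blood-facing membrane of glands and of muscle and brain, was 2.28-fold lower.

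All 6 AQP4 probes were lower in the dark muzzle, and they differed among themselves. In the light muzzle they stood at 1.87, 1.06, 0.98, 0.60, -1.04 and -3.78, against 1.51, -0.75, -0.44, -0.67, -2.53 and -4.55 in the dark muzzle. The first of these had a ratio of -0.36 and the other 5 ratios from -1.81 to -0.77. AQP1 (NM_174702), the water channel of small vessels, stood at 4.89 and 4.90 by its first probe, with a value of 0.05. Endothelial markers were higher in the dark muzzle over the same samples, with a median of 0.90, all 7 measured above 0 and 3 at least 2-fold higher (summed level 18.8 times the 75th percentile in the light and 42.9 times in the dark muzzle). Adipocyte markers had a median of 0.51 (summed level 210 and 296). Of 6, 2 were at least 2-fold higher, beside 9.86% of all genes, and 1 at least 2-fold lower, beside 6.47%. The part of fat, vessels or muscle in the AQP7 ratio was not tested.

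**Figure D2:**
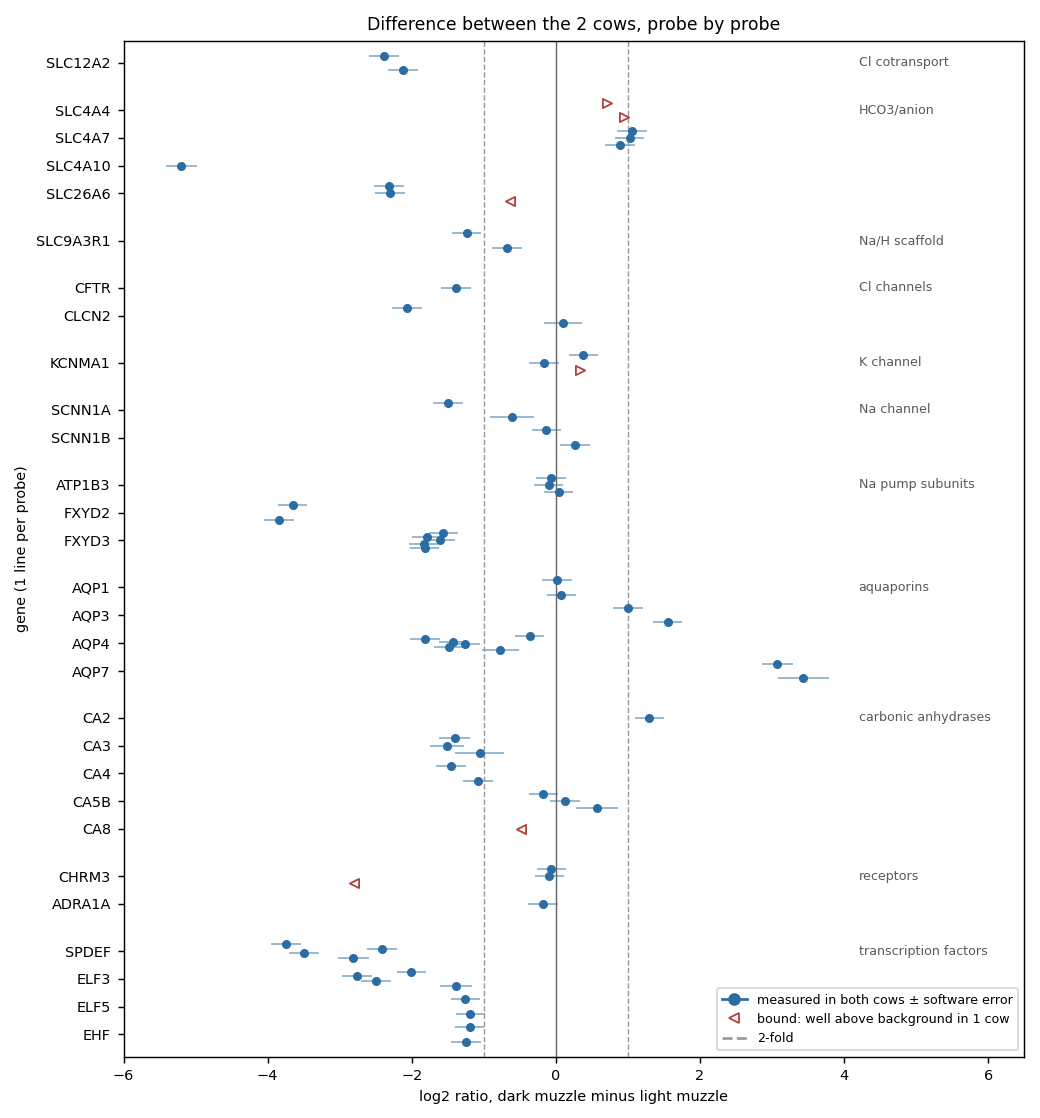
Log2 ratio, dark minus light muzzle, of each probe of the 29 genes with a value, with bars of 1 software error and triangles for bounds that point away from 0. Points left of the dashed line at -1 are the probes lower by 2-fold or more in the dark muzzle, and FXYD2, SPDEF and SLC4A10 lie farthest left while AQP7 lies farthest right.

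Carbonic anhydrases were split. CA2 (NM_178572), the fast cytosolic enzyme of red cells and many epithelia, was 2.45-fold higher in the dark muzzle by its 1 probe (0.60 and 1.89, log2 ratio 1.29 ± 0.20). CA4 (NM_173897), which is anchored on the outside of the membrane, was 2.41-fold lower, with levels of 1.74 and -0.22 in the light muzzle and 0.28 and -1.30 in the dark muzzle. CA3 (NM_001034437), an enzyme of slow muscle and fat, was 2.50-fold lower.

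Its 3 probes went from -1.97 to -3.38, from -2.71 to -4.22 and from -4.36 to -5.42, and under normexp the value was -0.70, under 2-fold. The 12 skeletal muscle markers were higher in the same sample, and the part of muscle or fat in the CA3 ratio was not tested. The mitochondrial CA5B (NM_001080908) had probes at -0.45, -2.21 and -4.50 in the light muzzle with ratios of -0.18, 0.12 and 0.57. CA8 (NM_001083690), which lacks the enzyme activity, gave only a bound of at least 1.39-fold lower, and the 1 probe of CA1 (NM_001075466), the red cell enzyme, was dim in both cows. The median of the 5 carbonic anhydrases with a value was -0.48, with CA2 higher and CA3 and CA4 lower by 2-fold or more. Without the filter on dim probes, which adds the background-level signals of CA1 and CA8, the median was 0.22. Of the red cell markers, HBA, a globin, had a value of -0.51 (4.15 and 3.64 in the light and dark muzzle) and AHSP, a globin chaperone, one of -0.39. The other 3 with a value (HBB, HBM and SLC4A1) lay near the detection limit, and ALAS2 was among those dim in both cows. The summed level of the list was 18.9 and 13.4, and the part of blood in the CA2 ratio was not tested.

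The receptors that start secretion hardly differed by their bright probes. CHRM3 (NM_174270), the muscarinic receptor through which acetylcholine drives glands and smooth muscle, had levels of 3.49 and 2.82 in the light muzzle and 3.43 and 2.73 in the dark muzzle. Its remaining probe stood at -3.01 in the light muzzle and was not well above background in the dark muzzle, at least 6.95-fold lower, so the probes of this transcript disagree. ADRA1A (NM_174498), a receptor for noradrenaline, had 1 measured probe at -1.07 and -1.25 and 1 that was dim in both cows.

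All 4 measured transcription factors were lower by 2-fold or more in the dark muzzle, by each of their 12 probes. SPDEF (NM_001081578), an ETS factor of goblet and other mucous cells, was 8.68-fold lower. Its probes went from 4.63 to 0.89, from 1.56 to -0.85, from 0.92 to -2.57 and from -0.85 to -3.67, with ratios from -3.75 to -2.41. The first of them had the 88th lowest ratio of all probes measured in both cows.

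ELF3 (NM_001098909), an ETS factor of many epithelia, was 4.47-fold lower. It went from 4.10 to 2.09, from 1.76 to -1.003, from -0.01 to -2.51 and from -2.49 to -3.88, with ratios from -2.76 to -1.39. ELF5 (NM_001024569), known from mammary and other glands, was 2.34-fold lower, from 2.57 to 1.31 and from 1.45 to 0.26. EHF (NM_001038036), a relative with a like range, was 2.33-fold lower, from 1.65 to 0.46 and from 1.56 to 0.31. Within each of these genes the ratios of the probes ranged less widely than the distance of their mean from 0.

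**Figure D3:**
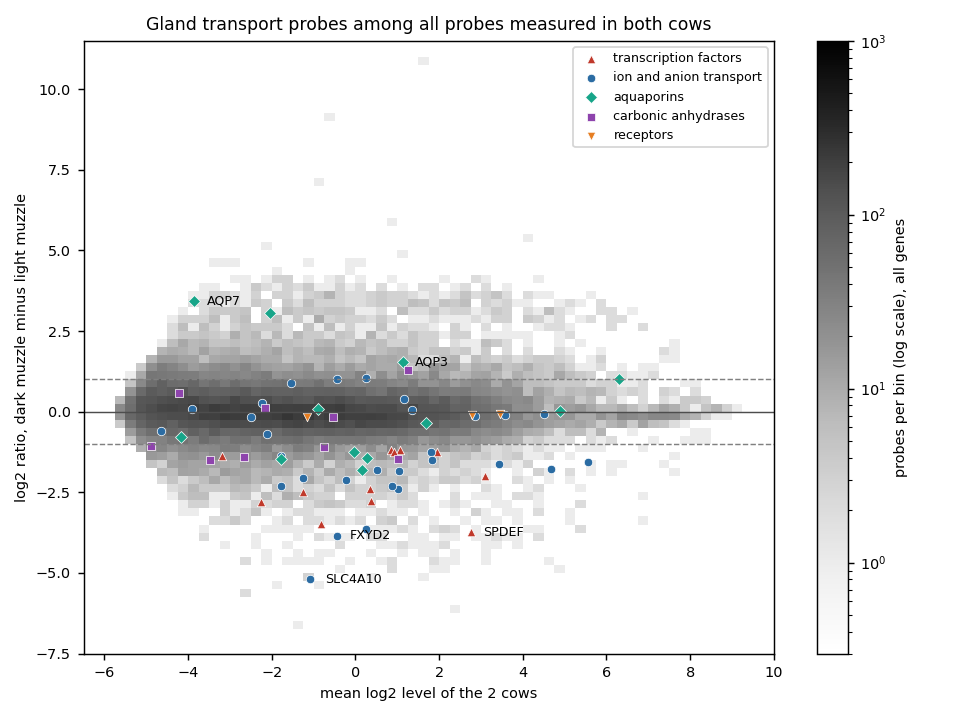
Log2 ratio (dark minus light muzzle) against mean log2 level for the 65 probes of the set measured in both cows, coloured by role, over all 33451 such probes in grey, where a darker bin holds more probes on a log scale. The transcription factors all lie below the dashed line at -1, over a wide range of levels, and the AQP7 probes lie above the main cloud.

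Most markers of serous gland secretion were lower in the dark muzzle as well. Serous gland secreted proteins, such as the prolactin-induced protein PIP, the antibody transporter PIGR and lactoferrin (LTF), were measured for 9 of 11 genes with ODAM dim in both cows. Of the 9, 6 were lower by 2-fold or more in the dark muzzle, beside 6.47% of all genes with a value, and the median was -3.19. At least 2-fold higher, beside 9.86% of all genes, was 1, BPIFA1 (value 1.29). It stood at -5.17 in the light muzzle, near the detection limit, and at -3.89 in the dark muzzle. PIP went from 7.39 to 2.50 and MSMB from 5.40 to -0.77, by 1 probe each. PIGR went from 4.77 to 1.47 by the mean of 3 probes and LTF from 3.64 to -0.95 by that of 5. The summed level of the list was 572 times the 75th percentile in the light muzzle and 45.9 times in the dark muzzle. LPO and LYZ, which are secreted by glands too, had values of 0.57 and 0.40.

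The 7 measured markers of simple and ductal epithelium had values from -3.63 to -0.59, with a median of -1.45 (summed level 173 and 84.7). Of these, 5 were at least 2-fold lower, beside 6.47% of all genes with a value. KRT7 went from 3.90 to 0.27 by its 1 probe and EPCAM from 2.93 to 1.48 by the mean of 2. The 6 markers of myoepithelium and smooth muscle had a median of 0.04, with DES, which skeletal muscle also makes, at 2.60. Of the 29 genes of the set with a value, 14 (48.3%) were at least 2-fold lower, beside 6.47% of all genes. SLC12A2, SLC26A6, FXYD2, FXYD3, SPDEF and ELF3 were among these 14. The 3 (10.3%) at least 2-fold higher were AQP7 (3.25), CA2 (1.29) and AQP3 (1.27), beside 9.86% of all genes. Among the 12 under 2-fold either way were SLC4A7 (0.99) and, close to 0, ATP1B3 (-0.04), AQP1 (0.05), SCNN1B (0.07) and CHRM3 (-0.08). The part of gland content in the ratios of the transporters and transcription factors was not tested.

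**Figure D4:**
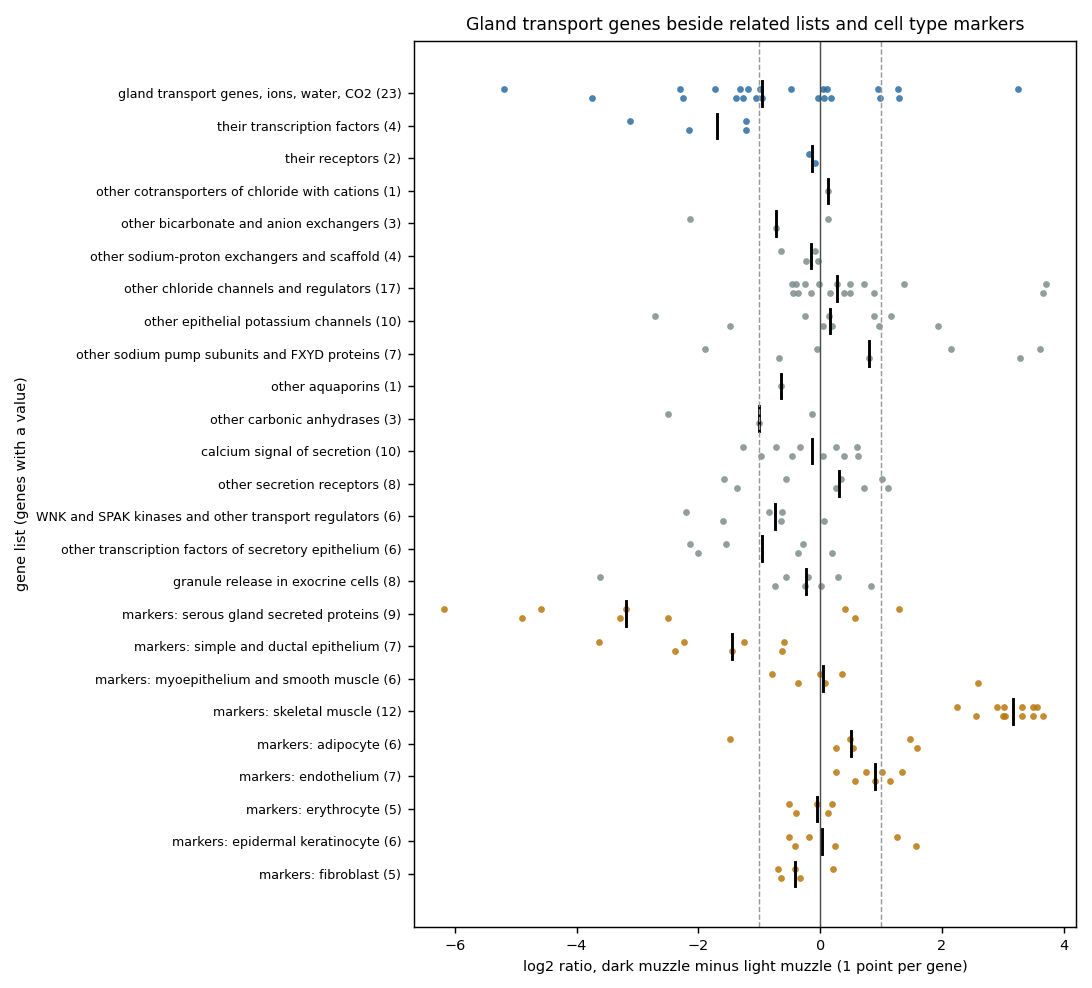
Log2 ratio (dark minus light muzzle) of each gene with a value in the gland transport set (blue), in lists of related transport genes (grey) and in cell type markers (orange), with 1 point per gene and a black line at the median of each list. The serous gland and skeletal muscle markers have medians of -3.19 and 3.17, and the related transport lists have medians between -1.003 and 0.80.

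Other genes of the same pathways were taken from 13 lists of 186 genes, also chosen with earlier results of these data known. Of these genes, 94 had probes and 84 a value. Of the 84, 15 were lower by 2-fold or more in the dark muzzle, beside 6.47% of all genes with a value, and 10 were at least 2-fold higher, beside 9.86%. Their median was -0.10. Of 7 further sodium pump subunits and FXYD proteins, 3 were at least 2-fold higher and 1 was at least 2-fold lower. ATP1B4 at 3.61 and FXYD1 at 2.15, both known from muscle, were among the 3.

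Of 17 further chloride channels and regulators, 0 were at least 2-fold lower, and 3 were at least 2-fold higher. These were ANO5 with a bound of 3.71, CLCN1 at 3.66 by 1 of its 4 probes and TTYH2 at 1.37. ANO5 and CLCN1 are best known from skeletal muscle, whose markers had a summed level of 681 times the 75th percentile in the light and 4065 times in the dark muzzle. The part of muscle in these ratios was not tested. Among 10 potassium channels, KCNJ16 (bound -2.71) and KCNK1 (-1.49) were at least 2-fold lower and KCNN2 (bound 1.93) and KCNE4 (1.16) at least 2-fold higher.

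Of 3 further anion exchangers, SLC26A2, a sulfate carrier, was lower at -2.14. Of 3 further carbonic anhydrases, CA6, the enzyme secreted into saliva, had a value of -2.50 (4.34 and 1.84 in the light and dark muzzle), and CA10 had a bound of -1.003. CA6 is also in the list of serous gland markers above, so the same measurement is counted in both places. Of 6 regulators, PRSS8, a protease that activates the epithelial sodium channel, had a value of -2.21, and STK39, the kinase SPAK that acts on NKCC1, a bound of -1.59. None of the genes in these 3 lists was at least 2-fold higher.

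Of 6 further transcription factors of secretory epithelium, 3 were at least 2-fold lower and 0 at least 2-fold higher. These were ETV1 (-2.15 by its 1 probe), FOXA3 (-2.01, ratios of its probes -2.99 and -1.03) and XBP1 (-1.54). XBP1, a factor of cells that secrete much protein, went from a mean level of 4.25 to 2.71. Of 8 genes of granule release, RAB26, a GTPase of secretory granules, was lower at -3.62 by its 1 probe, and the other 7 lay under 2-fold.

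Of 10 genes of the calcium signal that links receptor to secretion, ATP2A3, a calcium pump of the endoplasmic reticulum, was at least 2-fold lower at -1.27 (ratios of its probes -2.04 and -0.49), and 0 were at least 2-fold higher. Of 8 further receptors, 2, ADRB3 (-1.58) and P2RX4 (-1.37), were at least 2-fold lower. At least 2-fold higher were 2, among them VIPR1 (1.02). ADRB3 and VIPR1 rest on 1 probe each, and the 4 probes of P2RX4 had ratios from -3.23 to -0.65. The single measured further cotransporter, SLC12A4, and aquaporin, AQP2, had values of 0.13 and -0.64, and 4 sodium-proton exchangers and scaffolds lay between -0.64 and -0.03.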

How the data were processed

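RNA from 1 muzzle of each colour was read on 1 array each, and groups follow the nose colour in the labels. The authors deposited an intensity per spot, the processed signal of Agilent Feature Extraction 10.7.3.1, which is background-subtracted and detrended. A second deposited table, of log2 levels from the authors, had column medians that were -2.47 (light-muzzle) and -2.45 (dark-muzzle). Of its values, 99.97% lay within 0.01 of the levels computed here from the signals with a 75th percentile shift (largest difference 0.17), so scale and centring are known, and it served as an alternative.

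Control spots and spots marked as outliers were left out, spots of a probe were averaged, and each array was shifted by its 75th percentile. A bound sets the bright level against the higher of the other array's lowest level well above background and the dim probe's own. A gene's value is the mean over probes measured in both cows, or else the bound largest in size. A gene or probe was counted at 2-fold or more. The accession of 20587 probes (47.2%) matched the RefSeq table of assembly ARS-UCD2.0, which gave symbols only; SLC9A3R1 was matched by a synonym. The annotation build of the array differs, so no coordinates are given.

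Members and gene lists were chosen with earlier results of these data known. Every gene of the set is accounted for. Where at least 1 probe of a gene was 2-fold apart, the levels of its probes that were well above background are given. From the related lists up to 4 genes past 2-fold are named. A few genes of the related lists are not reported here. The number of arrays limits the precision, and no test was possible. The alternatives were quantile and loess (span 0.3) normalization, no shift, a shift by the 50th percentile, normexp background correction (offset 50, on median pixel signals), other filters on dim probes, outliers kept, the deposited log2 table, thresholds of 1.5-fold and 3-fold, genes in place of probes and the brightest probe of a gene. The counting was tested on simulated data. R 4.3.3 with limma 3.58.1 and Python 3.11.15 with numpy 2.4.6, pandas 2.3.3 and matplotlib 3.10.9 were used.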

Additional observations from a re-analysis of the deposited data

How the results depend on the processing

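The count of 38 probes at least 2-fold lower stayed between 34 and 39, and that of 6 probes at least 2-fold higher at 5 or 6, under quantile, loess and 50th percentile normalization, no shift, normexp, probes above background in both cows alone, the deposited log2 table and outliers kept. Without the filter on dim probes 10 were higher. At 1.5-fold 10 were higher, at 3-fold 2 were higher and 21 lower, and by gene 3 were higher and 14 lower. The median over genes, -0.99, was -0.78 under normexp and -1.20 by the brightest probe of each gene. None of the 17 genes at least 2-fold apart changed sign, but 4 came under 2-fold in an alternative: AQP3 (0.998) and AQP4 (-0.36) by the brightest probe, and CA3 (-0.70) and SCNN1A (-0.78) under normexp. Of 288 values of single genes, 34 moved by more than the median SD between probes. SLC4A10 was -1.05 without the filter on dim probes, which averages in its dim probes, and -4.45 under normexp. Without that filter, SLC4A4 was 2.54 and CHRM3 -1.03, and ADRA1A (0.20) and CA8 (0.28) changed sign. AQP7 was 2.17 under normexp, and CLCN2 -2.07 by its brightest probe. Naming probes by a gene name column alone was not run, because these files have no such column. No paired analysis was possible because each colour has 1 cow. Low levels limit the values of SLC4A4, CA8, the second AQP7 probe and the third CA3 probe, which lie near the detection limit, and 1 cow per colour limits all of them.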
